A study of Mus musculus with 60 samples.

Results

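The enzymes and the carrier that make, store and break down the monoamine transmitters were examined as 6 genes, Th, Gch1, Ddc, Slc18a2, Maoa and Maob, among the 20423 genes of the count table. The 6 were chosen by name for their role in the pathway, and all 6 passed the filter on low counts in every comparison. The study took cerebral cortex, striatum and cerebellum from mice deficient in paraoxonase 2 (PON2) and from wild-type mice. PON2 is a membrane lactonase of mitochondria and endoplasmic reticulum encoded by Pon2. Each region had 5 libraries of each sex and genotype, 60 libraries in 12 groups, from homozygous littermates of heterozygous Pon2 crosses on a C57BL/6J background. The PON2-deficient and wild-type groups shared this background, an age of 3 to 4 months and a round of behavioural tests before the tissue was taken. The labels number the libraries of a group but do not say which libraries came from the same mouse. P-values therefore measure the spread between these libraries.

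Dopamine, noradrenaline and adrenaline are made from tyrosine in a chain that starts with tyrosine hydroxylase (Th), the rate-limiting step. Tyrosine hydroxylase needs the cofactor tetrahydrobiopterin, whose synthesis starts with GTP cyclohydrolase (Gch1). Aromatic L-amino acid decarboxylase (Ddc) then makes dopamine, and it makes serotonin in serotonin neurons. The vesicular monoamine transporter (Slc18a2, also called VMAT2) loads these amines into synaptic vesicles, and the mitochondrial monoamine oxidases A and B (Maoa, Maob) break them down. Most monoamine neurons that send axons to the regions sampled here have their cell bodies in the midbrain and brainstem. The RNA of these cell bodies lies mostly outside a clean dissection. The olfactory bulb holds Th-positive neurons of its own, and some Purkinje cells of the cerebellum express Th. The oxidases are also expressed in glia.

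On GRCm38 (GENCODE M21) Th lies at chr7:142892752-142931128 on the minus strand, Ddc at chr11:11814101-11898144 on the minus strand, Slc18a2 at chr19:59260896-59296012 on the plus strand and Gch1 at chr14:47153895-47189413 on the minus strand. Maoa (chrX:16619698-16687818, plus strand) and Maob (chrX:16709282-16817366, minus strand) are paralogs that lie tail to tail on the X chromosome with 21463 bases between their ends. Ddc overlaps an antisense gene (1700042O10Rik) and Slc18a2 another (Gm29261). Gch1 holds 2 processed pseudogenes (Gm49134 and Gm18811) within its span. Whether the counting used strand is not given in the sources used here, so reads of a gene and of its antisense partner may not be told apart.

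The promoters of the 6 genes were read from RefSeq (GRCm38.p6) by symbol, and 5 of the 6 matched, all but Maob. Of 32851 promoter windows of 300 bases, 1.79% held the cyclic AMP response element TGACGTCA, and among the matched genes Th held it at position -45 and Slc18a2 at position -4 from the annotated start. The GC box GGGCGG was searched on both strands and was held by 35.7% of windows, among them those of Th, Slc18a2, Gch1 and Maoa. TATAAA, also searched on both strands, was held by 13.6% of windows and by 1 window each of Ddc and Gch1. Both matches lay on the strand opposite to the gene, at position -68 in Ddc and -188 in Gch1. Another window of Ddc held none. The 3 sequences below are shown because the first 2 share the rare element while the third, of an oxidase, lacks it. Each runs 5′ to 3′ on the strand of the gene from 150 bases before the start to 10 after it, with the searched elements in capitals. The windows lie at chr7:142899986-142900145 (Th), chr19:59260728-59260887 (Slc18a2) and chrX:16619548-16619707 (Maoa).
Th: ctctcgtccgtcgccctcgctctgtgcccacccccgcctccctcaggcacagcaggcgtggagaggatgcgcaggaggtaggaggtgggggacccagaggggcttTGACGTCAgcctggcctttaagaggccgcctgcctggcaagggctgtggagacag
Slc18a2: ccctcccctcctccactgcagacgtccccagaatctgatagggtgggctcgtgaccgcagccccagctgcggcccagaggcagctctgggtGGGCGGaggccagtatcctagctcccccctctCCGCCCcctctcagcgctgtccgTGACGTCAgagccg
Maoa: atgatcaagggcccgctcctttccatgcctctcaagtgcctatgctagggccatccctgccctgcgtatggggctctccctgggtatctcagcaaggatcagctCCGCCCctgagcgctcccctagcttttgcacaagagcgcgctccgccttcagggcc
A match of letters is a description of these windows. As given below, Th and Slc18a2 did not share 1 pattern over the regions.

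The libraries summed to 26.1 to 28.1 M counts each (M, mega). Levels are given as CPM (counts per M counts) on library sizes scaled by TMM (the trimmed mean of M values) over all 60 libraries. The labels of genotype were checked on Pon2, which measured 50.2 to 58.9 CPM in wild-type and 2.34 to 5.62 CPM in PON2-deficient cortex. It measured 44.7 to 56.8 against 2.54 to 6.91 CPM in striatum and 39.2 to 51.3 against 0.457 to 1.26 CPM in cerebellum. Summed markers of striatal projection neurons reached at least 2768 CPM in every striatum library and at most 941 CPM in any cortex library. Cortical excitatory neuron markers summed to at least 1381 CPM in cortex and at most 823 CPM in striatum. Cerebellar granule neuron markers summed to at least 3609 CPM in cerebellum and at most 94.4 CPM elsewhere. Tissue signals varied between the striatum libraries, where the cortical markers ranged from 135 to 823 CPM. Choroid plexus markers ranged there from 25.2 to 1822 CPM and hypothalamic peptides from 5.95 to 92.0 CPM. The relation of these sums in striatum to the 6 genes was not tested. Of 8 markers of midbrain dopamine neurons 5 were in the table, and the dopamine transporter Slc6a3 did not exceed 0.691 CPM in any library. The others, which further brain cells also express, were higher in cerebellum, where medians were 190.0 CPM for Aldh1a1, 6.31 CPM for En1, 1.95 CPM for Lmx1a and 0.365 CPM for Lmx1b. In cortex and striatum Aldh1a1 had medians of 36.2 and 38.0 CPM, and no other of the 5 had a median above 0.228 CPM. Pitx3, Foxa1 and Foxa2 were not among the genes analysed here. The serotonin neuron markers Slc6a4 and Fev were not among them either.

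The breakdown enzymes were the most abundant of the 6 RNAs and the cofactor enzyme the least. Levels were compared between genes as CPM per kilobase of annotated exon, which ignores which transcripts are used. In wild-type cortex Maob measured 8.98 ± 0.816 and Maoa 7.91 ± 0.463 CPM per kilobase (SD, n = 10), and their ranges overlapped. Th followed with 2.17 ± 1.33, Ddc with 1.67 ± 0.332, Slc18a2 with 0.944 ± 0.0915 and Gch1 with 0.193 ± 0.0410 CPM per kilobase. The wide range of Th overlapped with those of Ddc and Slc18a2, while the ranges of Ddc, Slc18a2 and Gch1 did not overlap. In wild-type striatum the order was the same, with Maob at 9.92 ± 0.995 and Maoa at 8.46 ± 0.490 CPM per kilobase, and the ranges of Th, Ddc and Slc18a2 overlapped in a chain. In wild-type cerebellum the order changed. Maoa (12.1 ± 0.424 CPM per kilobase) stood above Maob (7.26 ± 0.539) in every library, Th reached 4.43 ± 0.734, and Slc18a2 (0.929 ± 0.236) and Ddc (0.867 ± 0.176) overlapped.

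**Figure D1:**
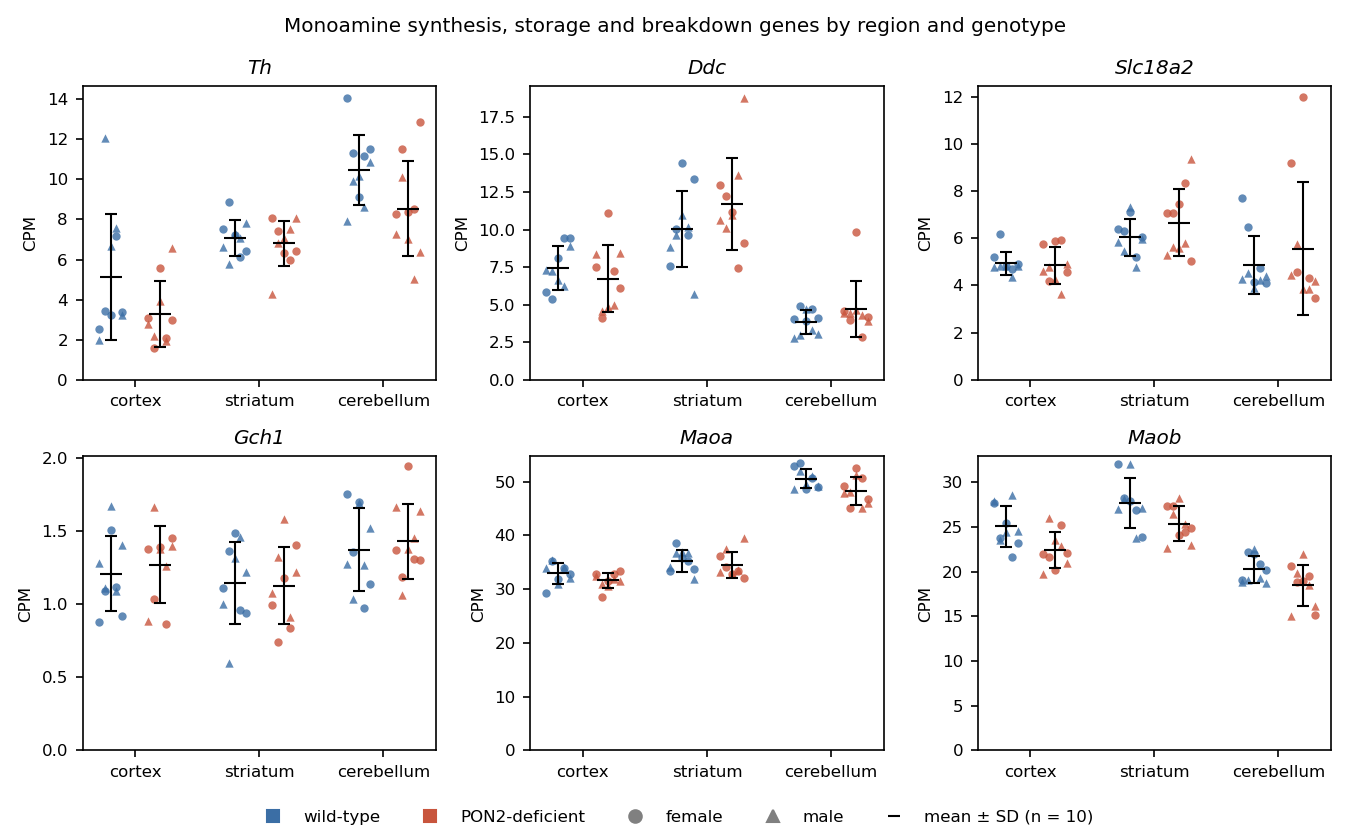
CPM of the 6 genes (vertical axes, each with its own scale) in cortex, striatum and cerebellum; each point is 1 library, blue for wild-type and red for PON2-deficient, circles for females and triangles for males, with mean and SD of the 10 libraries of a genotype. Maoa in cerebellum (45.0 to 53.4 CPM) lies above every library of the other regions, while the genotypes overlap in each panel.

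The regions were compared first, in 1 edgeR quasi-likelihood fit over the 60 libraries with Benjamini-Hochberg adjustment over 20387 genes. Between striatum and cortex 5 of the 6 genes differed, all higher in striatum, where 57.0% of all genes differed, 28.8% higher and 28.2% lower. Between cerebellum and cortex 4 of 6 differed, 2 higher and 2 lower in cerebellum, against 79.6% of all genes (40.1% higher, 39.5% lower). Between striatum and cerebellum all 6 differed, 3 in each direction, against 79.8% of all genes (40.2% higher, 39.7% lower). With such large shares over all genes, the counts of members are read as descriptions. The median log2 difference of the 6 was 0.27 between striatum and cortex (0.0054 over all genes), 0.12 between cerebellum and cortex (0.0029) and 0.0017 between striatum and cerebellum (0.0029). In these bulk samples fewer cells of a type and less RNA per cell cannot be told apart.

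Th, at the head of the chain, was lowest in cortex and highest in cerebellum. Its lowest, median and highest of the 20 libraries were 1.61, 3.25 and 12.04 CPM in cortex, 4.31, 7.06 and 8.87 CPM in striatum and 5.03, 9.52 and 14.0 CPM in cerebellum. The ranges overlapped because single cortex libraries reached high values, and cortex had the widest relative spread, a coefficient of variation (SD over mean) of 62.5% against 14.5% in striatum. Th was 1.72-fold higher in striatum than in cortex (log2 difference 0.78, SE 0.147, adjusted p = 8.85e-06) and 2.32-fold higher in cerebellum than in cortex (1.21, SE 0.147, adjusted p = 1.10e-10). Striatum was lower than cerebellum by a log2 difference of -0.43 (SE 0.142, adjusted p = 0.00502).

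Gch1, which starts the synthesis of the cofactor, was the scarcest of the 6, with medians of 34.1 counts per library in cortex, 30.0 in striatum and 39.5 in cerebellum. It ranged from 0.867 to 1.68 CPM in cortex (median 1.27), from 0.597 to 1.58 CPM in striatum (median 1.15) and from 0.977 to 1.95 CPM in cerebellum (median 1.37). The 3 ranges overlapped over most of their length. Gch1 was lower in striatum than in cerebellum (log2 difference -0.30, SE 0.103, adjusted p = 0.00650), a call lost with the wild-type libraries alone (-0.26, adjusted p = 0.127). The differences of striatum (-0.12, adjusted p = 0.322) and cerebellum (0.18, adjusted p = 0.102) from cortex did not pass the threshold. With the replicate number as a block across regions, the difference between cerebellum and cortex passed it narrowly, as given in the last section.

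Ddc was highest in striatum and lowest in cerebellum, the reverse of the order of Th between these regions. It measured 5.72, 10.4 and 18.8 CPM (lowest, median, highest) in striatum, 4.11, 7.27 and 11.1 CPM in cortex and 2.80, 4.17 and 9.87 CPM in cerebellum. Ddc was 2.53-fold higher in striatum than in cerebellum (log2 difference 1.34, SE 0.119, adjusted p = 4.28e-15) and 1.52-fold higher in striatum than in cortex (0.61, SE 0.116, adjusted p = 1.09e-05). Cerebellum was lower than cortex by a log2 difference of -0.73 (SE 0.120, adjusted p = 2.18e-07).

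Slc18a2, the vesicle carrier, was higher in striatum than in either other region, by smaller steps. It measured 4.78, 5.99 and 9.36 CPM in striatum, 3.64, 4.81 and 6.16 CPM in cortex and 3.48, 4.36 and 11.99 CPM in cerebellum. The log2 difference was 0.38 from cortex (SE 0.0999, adjusted p = 0.00104) and 0.31 from cerebellum (SE 0.0994, adjusted p = 0.00443). Cerebellum and cortex differed by 0.07 (adjusted p = 0.528), where the direction turned without 1 cerebellum library, PON2-deficient female 3 (-0.0091), and with wild-type libraries alone (-0.035).

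The oxidases went opposite ways between cerebellum and the forebrain regions. Maoa measured 45.0, 49.2 and 53.4 CPM in cerebellum, 28.6, 32.2 and 35.4 CPM in cortex and 31.9, 34.1 and 39.5 CPM in striatum, so that the cerebellum libraries did not overlap with any other. It was 1.53-fold higher in cerebellum than in cortex (log2 difference 0.61, SE 0.0272, adjusted p = 1.08e-27) and slightly higher in striatum than in cortex (0.11, SE 0.0273, adjusted p = 4.08e-04). Maob measured 15.1, 19.2 and 22.5 CPM in cerebellum, 19.8, 23.5 and 28.6 CPM in cortex and 22.6, 26.9 and 32.0 CPM in striatum. All cerebellum libraries lay below all striatum libraries. Maob was 1.37-fold higher in striatum than in cerebellum (0.46, SE 0.0450, adjusted p = 1.82e-13), and cerebellum was lower than cortex by a log2 difference of -0.29 (SE 0.0451, adjusted p = 5.53e-08). Between striatum and cortex Maob differed by 0.16 (SE 0.0448, adjusted p = 0.00174). Markers of astrocytes, which express Maob, summed to 611 to 842 CPM in striatum and 839 to 1000 CPM in cortex. In cerebellum they summed to 1542 to 1758 CPM. Among them Slc1a3 (medians 487 CPM in cortex and 994 CPM in cerebellum) and Aqp4 (93.1 and 298 CPM) were higher in cerebellum. Gfap (94.5 and 101 CPM) and Gja1 (170 and 174 CPM) were nearly level, and Aldh1l1 (77.0 and 63.9 CPM) was lower there. The part of astrocytes in the differences of Maob was not tested.

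PON2 has been described as highest in dopamine-rich areas. Only its RNA in the 3 regions could be set beside these genes, in the wild-type libraries, and the midbrain was not sampled. Pon2 RNA measured 55.5 ± 2.86 CPM in cortex, 51.2 ± 3.81 CPM in striatum and 42.8 ± 4.16 CPM in cerebellum (SD, n = 10). In an edgeR fit of the wild-type libraries the difference between striatum and cortex was -0.12 (SE 0.0506, adjusted p = 0.0565). Pon2 was lower in cerebellum than in cortex by a log2 difference of -0.38 (SE 0.0508, adjusted p = 1.06e-07), and 1.20-fold higher in striatum than in cerebellum (adjusted p = 4.09e-05). In the same fit Th was 1.41-fold (adjusted p = 0.0431), Ddc 1.34-fold (adjusted p = 0.00766) and Slc18a2 1.22-fold (adjusted p = 0.0147) higher in striatum than in cortex.

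The other genes of the pathway were taken as a list of 37, of which 32 were in the table and tested between regions. Between striatum and cortex 11 were higher and 6 lower in striatum, between cerebellum and cortex 13 were higher and 14 lower in cerebellum, and between striatum and cerebellum 15 were higher and 14 lower in striatum. Over all genes the shares called were 57.0%, 79.6% and 79.8%. The list's median log2 differences were 0.046, -0.061 and 0.21, where those of all genes were 0.0054, 0.0029 and 0.0029. Among the 7 genes of tetrahydrobiopterin synthesis and recycling the widest region difference belonged to Gchfr, the feedback regulator of GTP cyclohydrolase. Gchfr had a median of 2.26 CPM in cerebellum against 0.260 CPM in cortex and 0.257 CPM in striatum, and was 7.87-fold higher in cerebellum than in cortex (log2 difference 2.98, SE 0.148, adjusted p = 1.79e-25). Its partner Gch1 differed by 0.18 between the same regions. Spr (sepiapterin reductase, the last step of cofactor synthesis) had medians of 34.7 CPM in cortex, 31.0 in striatum and 35.8 in cerebellum, and was lower in striatum than in cortex by -0.11 (adjusted p = 0.0374).

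Dbh, which turns dopamine into noradrenaline, had a higher fitted mean in cerebellum than in cortex (log2 difference 1.68, SE 0.376, adjusted p = 7.00e-05, edgeR). It ranged from 0.0703 to 7.16 CPM in cerebellum (median 0.550) and from 0.226 to 0.753 CPM in cortex (median 0.396). The cerebellum range thus reached below as well as above that of cortex, and single high cerebellum libraries entered the fitted mean. The noradrenaline transporter Slc6a2 had a median of 0.706 CPM in cerebellum, with a range from 0.0335 to 9.48 CPM. It did not exceed 0.188 CPM in cortex or 0.584 CPM in striatum, and the cerebellum range overlapped with both. Tph2, the tryptophan hydroxylase of brain serotonin neurons, had medians of 1.14 CPM in cortex, 1.04 in striatum and 0.481 in cerebellum, and was lower in cerebellum than in cortex (-0.72, SE 0.237, adjusted p = 0.00542). Slc6a3, the carrier that takes dopamine back up, was near 0.23 CPM in cortex and striatum (medians 0.228 and 0.226 CPM) and at 0.0678 CPM in cerebellum. Nr4a2, a transcription factor of dopamine neurons that cortical neurons also express, had medians of 52.9 CPM in cortex, 40.2 in striatum and 22.8 in cerebellum.

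**Figure D2:**
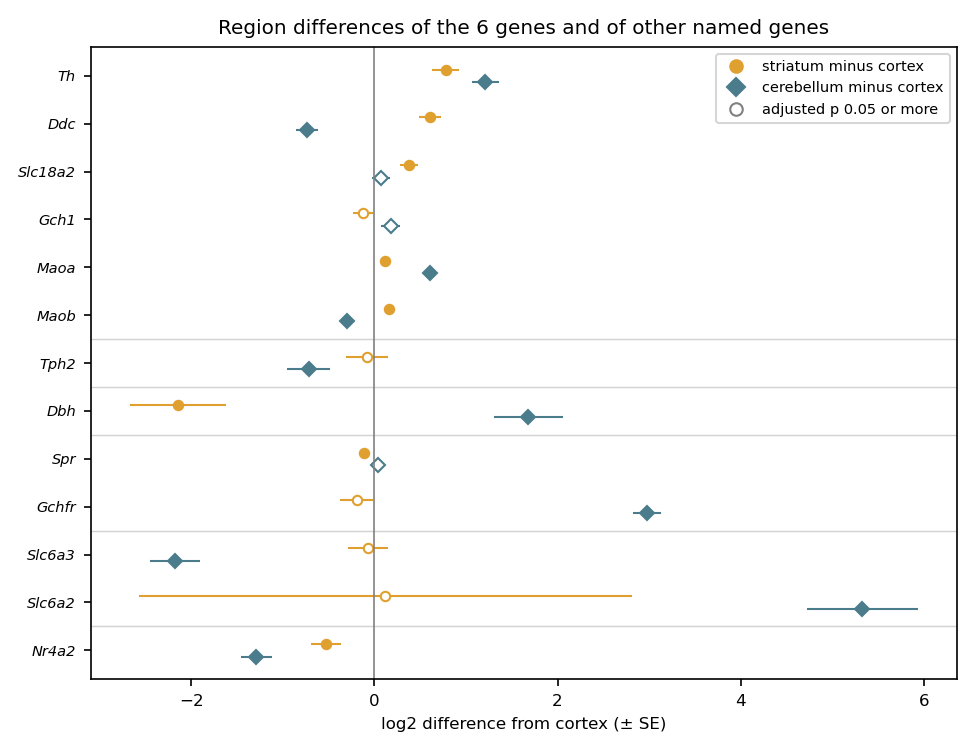
Log2 differences from cortex (horizontal axis, with SE) of the 6 genes and of Dbh, Tph2, Gchfr, Spr, Slc6a2, Slc6a3 and Nr4a2. Circles stand for striatum and diamonds for cerebellum. Filled symbols passed an adjusted p under 0.05 in edgeR, and gray lines part the roles. Th stands at 0.78 and 1.21, Ddc at 0.61 and -0.73, and Gchfr in cerebellum at 2.98.

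Genotype was then compared within each region, in 1 edgeR fit per region over its 20 libraries, as the mean of both sexes, PON2-deficient minus wild-type. edgeR called 0 of the 6 genes in every region, where it called 0.0316% (cortex), 0.0105% (striatum) and 0.0321% (cerebellum) of all genes. At an unadjusted p under 0.05 it passed 1 of the 6 in cortex (Maob), 0 in striatum and 1 in cerebellum (Th), against 11.4%, 4.94% and 11.1% of all genes. DESeq2, and limma on the deposited log2 values, also called 0 of the 6 in each region. The ranges of the genotypes overlapped for every gene in every region. The median log2 difference of the 6 was -0.10 in cortex (-5.6e-04 over all genes), -0.029 in striatum (0.0098) and -0.0014 in cerebellum (9.0e-04).

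Th had the largest fitted difference in cortex. The wild-type libraries measured 2.02, 3.40 and 12.04 CPM (lowest, median, highest) and the PON2-deficient ones 1.61, 2.88 and 6.58 CPM. The medians lay close together, and 4 wild-type libraries above every PON2-deficient one made most of the distance between the means. The log2 difference was -0.61 (SE 0.305, 95% confidence interval -1.25 to 0.022, adjusted p = 0.458), and -0.43 (adjusted p = 0.655) without wild-type male 2.

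Th in cortex varied together with genes of the olfactory bulb, which borders the frontal cortex, and with Omp. Over the 20 cortex libraries, after subtracting the group means, Pearson's r of Th was 0.84 with Eomes and 0.82 with Tbx21 (transcription factors of bulb projection neurons), 0.85 with Cdhr1, 0.87 with Doc2g and 0.80 with Omp (the olfactory marker protein). These are descriptions over libraries of 1 dissection with no p. Eomes, Tbx21 and Cdhr1 came from a marker list for olfactory bulb and interneuron progenitors, and Eomes was also among the 3 genes most like Th. Doc2g and Omp were chosen after their values were seen. Wild-type male 2, the highest library for Th, was also the highest for Omp (69.6 CPM, where the median of cortex was 0.437 CPM), Eomes (6.40 CPM) and Cdhr1 (33.8 CPM). The 4 wild-type libraries above the PON2-deficient range of Th (female 4 and males 2, 3 and 4) had 2.87, 6.40, 2.83 and 3.51 CPM of Eomes, against a wild-type median of 1.09 CPM. The sum of these 3 listed markers ranged from 8.10 to 43.2 CPM (median 10.3) in wild-type and from 6.30 to 14.7 CPM (median 8.45) in PON2-deficient cortex. With the mean of these markers in the model, added after the data were seen, the genotype difference of Th turned to 0.10 (SE 0.150, adjusted p = 0.878). The markers were correlated with Th in the same 20 libraries, so this shift is a description and no separate test. The cause of the difference of Th was not tested. Other tissue signals also varied in cortex. The 6 hypothalamic peptide genes in the table summed to 6.60 to 122 CPM (median 43.2) in wild-type libraries. In PON2-deficient cortex they summed to 3.29 to 158 CPM (median 9.53), and their relation to Th was not tested.

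**Figure D3:**
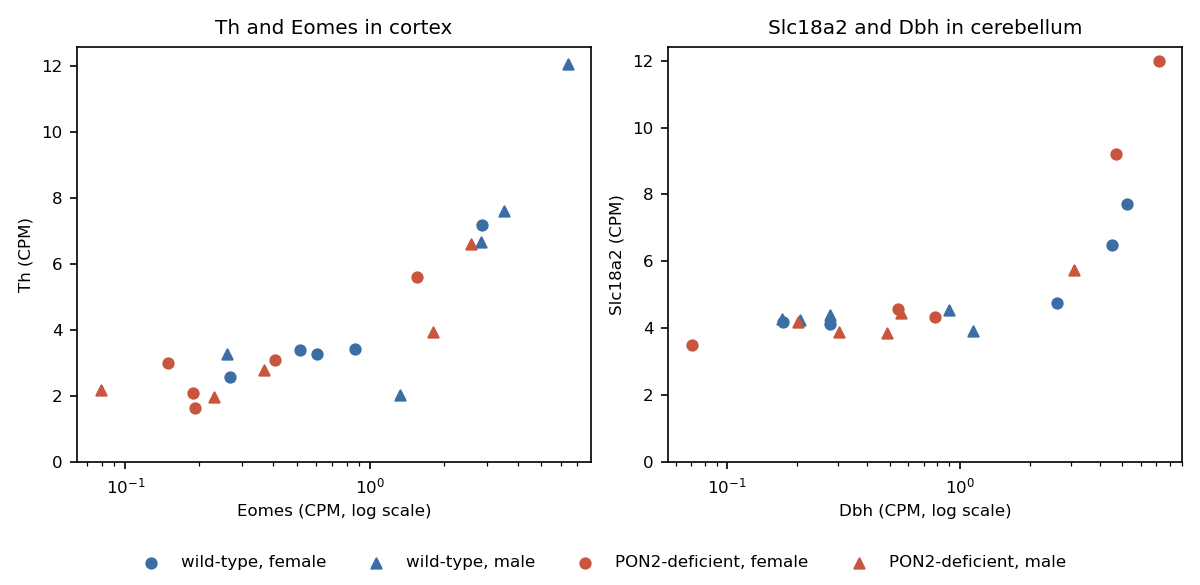
Left, Th against Eomes in the 20 cortex libraries; right, Slc18a2 against Dbh in the 20 cerebellum libraries (CPM, horizontal axes on a log scale; blue wild-type, red PON2-deficient, circles females, triangles males). The highest library for Th has 6.40 CPM of Eomes, and the highest for Slc18a2 has 7.16 CPM of Dbh.

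In striatum Th was even between the genotypes and its libraries lay close together. It measured 5.78, 7.13 and 8.87 CPM in wild-type and 4.31, 6.94 and 8.10 CPM in PON2-deficient libraries, and all but 1 PON2-deficient library lay within the wild-type range. The difference was -0.06 (SE 0.104, adjusted p = 0.995), with a 95% confidence interval of the change from -17.2% to 11.8%. In cerebellum Th measured 7.94, 10.5 and 14.0 CPM in wild-type and 5.03, 8.32 and 12.9 CPM in PON2-deficient libraries. Here 4 PON2-deficient libraries, all male, lay below the wild-type range, and 8 of 10 lay below the wild-type median. The log2 difference was -0.31 (SE 0.114, unadjusted p = 0.0145, adjusted p = 0.302).

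Gch1 showed no difference between the genotypes beyond its spread. Its wild-type and PON2-deficient medians were 1.12 and 1.38 CPM in cortex, 1.17 and 1.13 CPM in striatum, and 1.32 and 1.38 CPM in cerebellum. The log2 differences were 0.08 (SE 0.141, adjusted p = 0.884), -0.03 (SE 0.167, adjusted p = 0.996) and 0.06 (SE 0.136, adjusted p = 0.914). At its low counts the 95% confidence intervals of the change still reached from -13.9% to 29.3% in cortex and from -23.0% to 24.8% in striatum.

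Ddc had positive fitted differences over both sexes in striatum and cerebellum that did not pass the threshold. In striatum it measured 5.72, 9.84 and 14.4 CPM in wild-type and 7.45, 11.1 and 18.8 CPM in PON2-deficient libraries (log2 difference 0.22, SE 0.148, adjusted p = 0.995). In striatum of females the wild-type range was 7.60 to 14.4 CPM and the PON2-deficient range 7.45 to 12.95 CPM, with a fitted difference of -0.06 (SE 0.208, unadjusted p = 0.795, edgeR). In males the wild-type libraries 1 to 5 measured 8.81, 9.62, 10.97, 10.2 and 5.72 CPM and the PON2-deficient ones 10.6, 10.1, 10.96, 13.6 and 18.8 CPM. The groups overlapped, with 1 low wild-type and 2 high PON2-deficient libraries at the ends, and the fitted difference was 0.49 (SE 0.209, unadjusted p = 0.0282, adjusted p = 0.792). The highest value came from PON2-deficient male 5, a library that stood apart. Its precision weights averaged 0.0527 times the median striatum library, and its 19944 genes with a count were the fewest of the 60. Without it the difference of Ddc over both sexes was 0.13 (adjusted p = 0.817) and that of Slc18a2 0.05 (adjusted p = 0.916).

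In cerebellum Ddc measured 2.80, 4.00 and 4.91 CPM in wild-type and 2.87, 4.38 and 9.87 CPM in PON2-deficient libraries (log2 difference 0.30, SE 0.162, adjusted p = 0.514). The highest value came from PON2-deficient female 3, and without it the difference was 0.11 (adjusted p = 0.772). In cortex Ddc measured 5.37, 7.28 and 9.47 CPM in wild-type and 4.11, 6.70 and 11.1 CPM in PON2-deficient libraries (-0.15, SE 0.163, adjusted p = 0.790).

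Slc18a2 was even between the genotypes in cortex, where wild-type libraries had a median of 4.81 CPM and PON2-deficient ones of 4.70 CPM (log2 difference -0.03, SE 0.0800, adjusted p = 0.931) and a 95% confidence interval of the change from -12.7% to 10.0%. In striatum the medians were 5.99 and 6.44 CPM (0.14, SE 0.114, adjusted p = 0.995). In cerebellum most libraries lay between 3.5 and 5 CPM and a few far above. The wild-type libraries measured 3.905, 4.34 and 7.70 CPM and the PON2-deficient ones 3.48, 4.39 and 11.99 CPM, a difference of 0.18 (SE 0.188, adjusted p = 0.792) that was 0.02 (adjusted p = 0.983) without PON2-deficient female 3.

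The 4 highest cerebellum libraries for Slc18a2 were also high for Dbh, and 2 of them for Tph2, genes of noradrenaline and serotonin neurons, whose cell bodies lie in the brainstem below the cerebellum. Over the 20 cerebellum libraries, after subtracting the group means, r of Slc18a2 was 0.84 with Dbh, 0.77 with Slc6a2 and 0.85 with Tph2, while r of Th with the same genes was 0.10, 0.10 and -0.26. PON2-deficient female 3 had 11.99 CPM of Slc18a2 with 7.16 CPM of Dbh, 9.48 of Slc6a2 and 4.31 of Tph2. PON2-deficient female 1 had 9.20 CPM of Slc18a2 with 4.71 CPM of Dbh and 3.57 of Tph2. Wild-type females 1 and 2 had 7.70 and 6.48 CPM of Slc18a2 with 5.24 and 4.53 CPM of Dbh, and the median of Dbh in cerebellum was 0.550 CPM. These 4 libraries were all female and came from both genotypes. Tph2 was high in the PON2-deficient libraries of the 4, while wild-type females 1 and 2 had 0.809 and 0.941 CPM, the latter the highest of the wild-type libraries. Its cerebellum medians were 0.483 CPM (wild-type) and 0.481 CPM (PON2-deficient). The summed noradrenaline markers Dbh and Slc6a2 ranged from 0.275 to 11.96 CPM (median 1.30) in wild-type and from 0.234 to 16.6 CPM (median 1.26) in PON2-deficient cerebellum. With their mean in the model, added after the data were seen, the genotype difference of Slc18a2 was 0.10 (SE 0.116, adjusted p = 0.802). That of Ddc was 0.27 (SE 0.142, adjusted p = 0.489). The causes of these differences were not tested.

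Maoa had the narrowest spread of the 6 genes and the tightest bounds. Its wild-type and PON2-deficient medians were 33.3 and 31.7 CPM in cortex, 35.4 and 33.5 CPM in striatum, and 50.1 and 47.9 CPM in cerebellum. The log2 differences were -0.06 (SE 0.0390, adjusted p = 0.594), -0.03 (SE 0.0485, adjusted p = 0.995) and -0.06 (SE 0.0342, adjusted p = 0.499). The 95% confidence intervals of the change ran from -9.28% to 1.51% in cortex, from -8.68% to 5.06% in striatum and from -8.97% to 0.460% in cerebellum.

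Maob had negative fitted differences of nearly equal size in the 3 regions, none of them called. In cortex it measured 21.7, 24.5 and 28.6 CPM in wild-type and 19.8, 22.1 and 25.99 CPM in PON2-deficient libraries, and 8 of 10 PON2-deficient libraries lay below the wild-type median. In striatum it measured 23.8, 27.5 and 32.0 CPM against 22.6, 25.1 and 28.2 CPM, with 9 of 10 below that median. In cerebellum it measured 18.7, 19.7 and 22.5 CPM against 15.1, 18.9 and 21.9 CPM, with 7 of 10 below it. The log2 differences were -0.16 in cortex (SE 0.0577, unadjusted p = 0.0108, adjusted p = 0.275), -0.13 in striatum (SE 0.0637, adjusted p = 0.995), and the cerebellum value was -0.13 (SE 0.0672, adjusted p = 0.480). Within each sex they were -0.13 in females and -0.19 in males of cortex, -0.11 and -0.14 in striatum, and -0.16 and -0.10 in cerebellum. In cortex the difference was -0.21 (adjusted p = 0.219) with the olfactory bulb marker mean in the model.

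**Figure D4:**
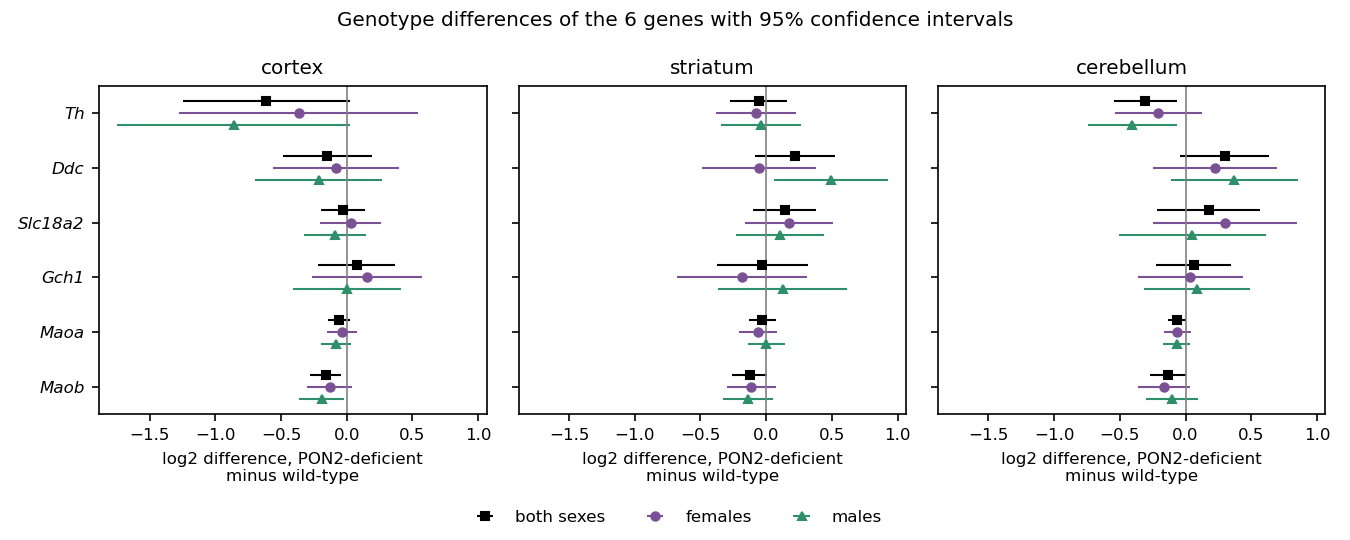
Log2 differences between PON2-deficient and wild-type libraries (horizontal axis) with 95% confidence intervals for the 6 genes in each region, for both sexes together (squares, 10 libraries a genotype), females (circles) and males (triangles, 5 a genotype each). None passed the adjusted threshold; Maob lies between -0.19 and -0.10 in each region and sex, and Th in cortex has the widest intervals.

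A mean of the 3 regions' genotype differences, in the fit over all 60 libraries, was added after the values of Maob were seen. It gave -0.14 for Maob (SE 0.0367, adjusted p = 0.0358), a change of -9.27%. It called 1 of the 6 genes, against 1.29% of all genes (0.402% lower and 0.893% higher). At an unadjusted p under 0.05 it passed 3 of the 6 (Th, Maoa and Maob), against 12.9% of all genes. This call was lost in 10 of the 60 fits with 1 library left out (adjusted p 0.0160 to 0.0600), each without 1 of these libraries. In cortex they were female 1 and male 4 of the wild-type and female 3, male 1 and male 5 of the PON2-deficient group. In striatum they were wild-type male 2 and PON2-deficient female 3. In cerebellum they were wild-type female 2 and, of the PON2-deficient group, female 5 and male 5. The fit takes the 60 libraries as independent. With the mean log2 CPM of the 3 libraries of equal sex, genotype and number taken as 1 unit, limma gave the same difference (-0.14, SE 0.0459) with an adjusted p of 0.288. These means ranged from 4.49 to 4.71 (median 4.58) in wild-type and from 4.24 to 4.61 (median 4.48) in PON2-deficient units. The same mean over regions was -0.32 for Th (adjusted p = 0.181), -0.05 for Maoa (adjusted p = 0.294), 0.12 for Ddc (adjusted p = 0.655), 0.10 for Slc18a2 (adjusted p = 0.698) and 0.04 for Gch1 (adjusted p = 0.921).

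Whether a genotype difference itself differed between regions or sexes was tested as an interaction. edgeR called 0 of the 6 genes in each of the 3 pairs of regions, where it called 0%, 0.0147% and 0.00981% of all genes (striatum and cortex, cerebellum and cortex, striatum and cerebellum), and 0 of the 6 passed at an unadjusted p under 0.05 (6.30%, 4.15% and 5.97% of all genes). DESeq2 and limma also called none of the 6. The widest was Th between striatum and cortex, at 0.55 (SE 0.294, adjusted p = 0.806). Maob differed by 0.03 between striatum and cortex (95% confidence interval -0.15 to 0.21) and by 0.03 between cerebellum and cortex (-0.15 to 0.21). In each sex taken alone edgeR called 0 of the 6 in each region (of all genes, 0.00527% in females and 0.148% in males of cortex, 0.00527% in each sex of striatum, 0.00534% and 0.0160% in cerebellum). The male and female differences were not called apart for any of the 6, and Ddc in striatum had the widest gap (0.55, SE 0.295, adjusted p = 0.880).

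Males and females were compared as a mean of both genotypes. edgeR called 0 of the 6 in each region, as did DESeq2 and limma, against shares over all genes of 0.0896% (cortex), 0.105% (striatum) and 0.118% (cerebellum) in edgeR. At an unadjusted p under 0.05, 1 passed in cortex (Slc18a2), 0 in striatum and 2 in cerebellum (Th and Slc18a2), against 10.5%, 7.82% and 7.24% of all genes. Th in cerebellum measured 8.28, 11.2 and 14.0 CPM in the 10 female libraries and 5.03, 8.28 and 10.9 CPM in the 10 male ones, a male minus female difference of -0.36 (SE 0.114, adjusted p = 0.534). Slc18a2 in cerebellum measured 3.48, 4.65 and 11.99 CPM in females and 3.85, 4.25 and 5.74 CPM in males, a difference of -0.47 (SE 0.189, adjusted p = 0.598). With the noradrenaline marker mean in the model the difference of Slc18a2 was -0.05 (SE 0.134) and that of Th -0.34 (SE 0.127). The causes were not tested.

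Among the other 32 genes of the pathway in the table, the genotype test covered 28 (cortex), 25 (striatum) and 29 (cerebellum), and edgeR called none in any of the 3 regions. At an unadjusted p under 0.05 it passed 9, 1 and 2 of them, against 11.4%, 4.94% and 11.1% of all genes. Their median log2 differences were -0.066 (cortex), 0.0093 (striatum) and -0.034 (cerebellum), and those of all genes -5.6e-04, 0.0098 and 9.0e-04. The smallest p in cortex belonged to Aldh1a1, an aldehyde dehydrogenase (wild-type median 32.4 CPM, PON2-deficient median 38.0 CPM, log2 difference 0.20, SE 0.0609, adjusted p = 0.180), and to Akr1b3, an aldose reductase (39.5 and 37.1 CPM, -0.13, SE 0.0394, adjusted p = 0.198). In striatum they belonged to Hdc, which makes histamine (2.21 and 2.79 CPM, 0.29, SE 0.140), and to the low Tph1 (0.283 and 0.222 CPM, -0.97, SE 0.542), both with an adjusted p of 0.995. In cerebellum they belonged to Aanat, an enzyme of melatonin synthesis (0.121 and 0.276 CPM, 1.42, SE 0.379, adjusted p = 0.149), and to Adh5 (52.5 and 49.2 CPM, -0.08, SE 0.0263, adjusted p = 0.214).

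How the 6 genes varied with one another from library to library differed between regions. Over the 60 libraries, after subtracting the 12 group means, the highest r of a pair was 0.44 (Ddc and Slc18a2), followed by 0.41 (Slc18a2 and Maoa) and 0.40 (Ddc and Maoa). Maoa and Maob had an r of 0.05, and Th and Gch1 of 0.09. Over the 20 libraries of a region, 5 pairs lay beyond 0.5 in size. In cortex they were Th and Maob (-0.52) and Ddc and Maob (-0.54), in striatum Ddc and Maoa (0.56), and in cerebellum Ddc and Slc18a2 (0.59) and Slc18a2 and Maoa (0.58). The r of Th and Maob was 0.40 in striatum and -0.22 in cerebellum. These values share libraries, depth and normalization. Among 13829 genes whose mean reached 1 CPM, the 3 most like Th were Doc2g (r = 0.73), Omp (0.64) and Eomes (0.62), a likeness found in cortex (0.87, 0.80 and 0.84) and not in striatum (-0.03, 0.16 and 0.23) or cerebellum (-0.07, -0.14 and 0.03). The 3 most like Ddc were Igsf1 (0.65), Timp2 (0.64) and Minar2 (0.61), with an r of at least 0.495 in each region. For Slc18a2 they were Tmem179 (0.76), Slc10a4 (0.70) and Tubb5 (0.68), of which Slc10a4, a vesicle protein of monoamine and cholinergic neurons, had an r of 0.87 in cerebellum and 0.18 in cortex. Gch1 was most like Lonp1 (0.55), Eif2ak1 (0.48) and Lrrtm1 (0.47), Maoa like Cyp2j6 (0.62), Gabrg1 (0.56) and Pura (0.55), and Maob like Hist1h2ac (0.61), Abhd4 (0.60) and Tprkb (0.59).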

How the data were processed

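Total RNA of cortex, striatum and cerebellum was sequenced as 150 nt pairs. The authors deposited expected counts per gene, log2 CPM values made with voom, and precision weights, a score per gene and library. The submitters' processing notes name Salmon, edgeR and limma without versions. Genome build, annotation and strand setting were not given in the sources used here. Of 20423 gene IDs, 20403 matched GENCODE M21, which gave symbols and positions.

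Expected counts were rounded and analysed with edgeR 4.0.16 in R 4.3.3 (TMM, filterByExpr, 2-sided quasi-likelihood F tests, Benjamini-Hochberg adjustment over all genes, threshold 0.05), with 1 fit per region for genotype and sex and 1 over all 60 libraries for regions. The pipeline was tested on simulated data. Alternatives were RLE scaling, no filter, DESeq2 1.42.0, limma 3.58.1 on the deposited values, 1 fit over all libraries, wild-type libraries alone, a replicate block and leaving out each library. The bulb and noradrenaline marker models and the mean over regions were added after the data were seen. The log2 CPM of libraries for correlations used a prior count of 2.

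The 6 genes, the pathway list and the alternatives were chosen with earlier results of these data known. The rule for names takes the 6 genes, Pon2, for genotype the 2 pathway genes with the smallest p of a region where none is called, for regions the enzyme, carrier or factor of the same step, and the 3 genes most like each of the 6. Results for some genes are not reported here.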

Additional observations from a re-analysis of the deposited data

Results flagged for a closer look

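In 7 of 72 groups of 5 libraries, 1 library lay far from the other 4 (a gap over 0.71 of the group's range), where chance gives about 1 in 20. Th in cortex was 7.16 CPM in wild-type female 4, against 2.55 to 3.42 CPM in the other females. Ddc in cerebellum was 9.87 CPM in PON2-deficient female 3 (2.87 to 4.60 in the others), and Gch1 was 1.95 CPM in the same library (1.19 to 1.37 in the others). Slc18a2 in striatum was 9.36 CPM in PON2-deficient male 5 (5.27 to 5.81 in the others). In cerebellum of wild-type male 3, Ddc was 4.70 CPM (2.80 to 3.33 in the others) and Maob 22.5 CPM (18.7 to 19.2 in the others). Slc18a2 in cortex was 4.34 CPM in wild-type male 4, just below the narrow range of the other 4 (4.80 to 4.82 CPM).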

How the results depend on the processing

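By genotype or sex within a region, 0 of the 6 genes were called under every alternative run. Between regions the counts of 5, 4 and 6 held under each, except 5 for cerebellum and cortex with the replicate block and 5 for striatum and cerebellum with wild-type libraries alone, both through Gch1. The mean over regions called 1 gene, 0 with same-numbered libraries averaged (Maob -0.14, adjusted p = 0.288) and 0 to 1 with 1 library left out. The difference of Th in cortex, -0.61, was 0.098 with the bulb marker mean, where Slc18a2 (-0.03) was 0.0080. The other changes of sign were of differences between -0.06 and 0.07. In limma on the deposited values Gch1 was 0.045 by genotype in striatum and 0.029 by sex in cerebellum. With the noradrenaline marker mean the sex differences in cerebellum were 0.026 for Gch1, 0.012 for Maoa and 1.0e-04 for Maob. With 1 library left out the genotype difference ranged from -0.056 to 0.0038 for Slc18a2 in cortex, from -0.091 to 0.0067 for Th in striatum, from -0.11 to 0.028 for Gch1 in striatum and from -0.0065 to 0.11 for Gch1 in cerebellum. The sex difference of Gch1 in cerebellum ranged from -0.051 to 0.069, and Slc18a2 between cerebellum and cortex from -0.0091 to 0.11 (-0.035 with wild-type libraries alone). The causes were not tested.

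With the replicate number as a block edgeR also called 0 of the 6 genes by genotype in each region. Across regions the block gave Gch1 0.18 between cerebellum and cortex with an adjusted p of 0.0484, and by sex in cerebellum it gave Gch1 0.0070. Same-numbered pairs of libraries with a correlation above 0.1 were 3 of 10 for the genotypes in cortex, 5 of 10 in striatum and 4 of 10 in cerebellum. Across regions they were 8 of 20 for striatum and cortex (median r 0.065) and 13 of 20 for cerebellum and cortex (0.11). For striatum and cerebellum they were 10 of 20 (0.098). Without pairs of different numbers as a reference, these values cannot decide whether equal numbers mark the same mouse. The main fits left the number out, and which result of Gch1 holds stays undecided.

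Over all genes the count called by genotype was 6 in cortex (DESeq2 229, block 30, fit over all libraries 2, bulb marker mean 1, 1 to 26 with 1 library left out). It was 2 in striatum (7, 1 and 4 in the first 3 of these, 3 in limma, 2 to 3 with 1 library left out). It was 6 in cerebellum (DESeq2 250, limma 16, fit over all libraries 13, noradrenaline marker mean 10, 1 to 49 with 1 library left out). The mean over regions called 264 genes (limma 818, DESeq2 429, same-numbered means 11, 191 to 762 with 1 library left out). Medians of all genes moved by less than 0.1 under each scaling. Depth limits Gch1 most, at about 30.0 to 39.5 counts per library.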
